A study of Mus musculus with 28 samples.

Results

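This account follows 44 genes of mitosis and chromosome segregation, a list of gene symbols chosen with earlier results of these data known. They were matched to the 55413 Ensembl gene IDs of the deposited tables. All 44 matched an ID and all 44 passed the filter on low counts, which left 17188 genes. Bulk RNA of T cells from the spleen was sequenced. The mice were C57BL/6J males aged 8 to 12 weeks that received 1 dose a day for 11 days or no treatment. Untreated mice (NT, n = 7) were set beside mice given empty polymersomes under the skin (PS, n = 4), free rapamycin in 0.2% CMC under the skin (R, n = 6), oral rapamycin as Rapamune by gavage (RO, n = 6) and rapamycin-loaded polymersomes under the skin (rPS, n = 5). Polymersomes are vesicles of poly(ethylene glycol)-block-poly(propylene sulfide), and rapamycin is an inhibitor of the kinase mTOR. The drug dose was 1 mg/kg from a stock of 0.125 mg/ml in R, RO and rPS. The polymer dose was 60 mg/kg, at about 7.5 mg/ml, in PS and rPS. No CMC vehicle group is among the 5 groups. The labels name the cells as CD3+ and say that they were enriched with magnetic beads. That separate samples are separate mice is not stated for each sample, so p-values measure the spread between these samples.

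Mitosis separates copied chromosomes. Cdk1 with its cyclins drives entry, kinetochores tie chromosomes to the spindle, the checkpoint holds the anaphase-promoting complex until all are attached, and motors and bundling proteins build the spindle and the cleavage site. Most of these genes are transcribed only as cells approach division, and their messenger RNA is widely used as a measure of proliferation. Resting T cells are largely outside the cell cycle, whereas activated lymphocytes, germinal centre B cells, plasmablasts and blood cell precursors of the spleen divide.

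Library totals ran from 4286885 to 15696529 counts, and a count of 0 would allow up to 3 counts, or 0.191 to 0.7 CPM (counts scaled to a common library size of 1000000), a limit that covers counting error only. The T cell label did not hold evenly. Cd3e, a subunit of the T cell receptor complex, ran from 10.9 to 53.1 CPM in 6 libraries (R replicate 3, RO replicate 3 and, among the untreated, replicates 3, 4, 7 and 8) and from 69.5 to 508 CPM in the other 22. In those 6 libraries the mean level of a list of T cell markers, Cd3e among them, was below that of monocyte and macrophage markers. By that rule they are called here the libraries that stand apart. The table of RO replicate 7 lists 0 for all genes of chromosomes 13 to 19, X, Y and the mitochondrion and for part of chromosome 12. That library was left out for the 8 genes of the list that it lists at 0 (Kif20a, Kif11, Racgap1, Ndc80, Incenp, Cep55, Kif4 and Ccnb1), and n is 5 for RO in these.

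The genes of mitosis were lowest in mice given rapamycin-loaded polymersomes. Against NT, 43 of the 44 were called lower in rPS (adjusted p under 0.05) and none higher, beside 22.7% of all 17188 genes called in either direction, 12.0% called lower and 10.7% called higher. The median log2 fold change of the 44 was -1.97, against -0.02 over all genes tested. Among 106 other mitosis genes tested, 55 were called lower and 2 higher, with a median of -0.63. Since the 44 were chosen with earlier results known, the shares over all genes are given as a description. Of the 44 genes, 20 had a log2 fold change below -2, 20 lay between -2 and -1, 3 between -1 and 0, and 1 above 0. In 33 genes every rPS library lay below every NT library, a pattern seen in 2.01% of all genes tested. In bulk RNA, fewer dividing cells and less of these transcripts per cell cannot be told apart.

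Fewer of the genes passed with free rapamycin under the skin. Against NT, 19 genes were called lower in R and none higher, beside 0.873% of all genes called and 0.803% called lower, with a median of -1.10 over the 44. For oral rapamycin the median was -1.04 and edgeR called none of the 44, beside 0.0116% of all genes called, while 42 had an unadjusted p under 0.05, beside 14.5% of all genes. For RO, DESeq2 called 29 and limma voom 42 of the 44, beside 1.73% and 46.9% of all genes. Empty polymersomes alone gave a median of -0.85, with 12 genes called lower in PS, beside 7.52% of all genes called and 4.12% called lower. Single libraries moved the counts of R, RO and PS. The R count was 7 to 11 when NT replicate 4, 7 or 8 or R replicate 2, 5, 6 or 7 was left out. The share of all genes called was then 0.192% to 0.473%. For RO, leaving out RO replicate 3 gave 22 (4.9% of all genes), NT replicate 5 gave 18 (2.12%) and NT replicate 6 gave 14 (0.443%). The PS count was 0 without NT replicate 3, 4, 7 or 8 or without any of the 4 PS libraries. The share of all genes was there 0.0114% to 0.491%. Without NT replicates 5 and 6 the PS count was 20 and 23, beside 18.2% and 15.4% of all genes. The 4 comparisons share the NT libraries. Counting means only, 42 of the 44 genes were highest in NT and lowest in rPS, an order found in 15.4% of all genes tested.

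The sum of the 36 genes with a value in every library was also highest in NT and lowest in rPS. It was 790, 903, 1520, 727, 493, 977 and 1280 CPM in NT replicates 2 to 8, 532, 523, 490 and 381 CPM in PS, and 285, 254, 375, 135 and 207 CPM in rPS. In R it ran from 246 to 648 CPM (median 472) and in RO from 357 to 525 CPM (median 436). All 5 rPS libraries were below all 7 NT libraries and below all 4 PS libraries, while PS, R and RO overlapped each other and the lowest NT library. The means were 956 ± 347 (SD) CPM in NT, 481 ± 69 in PS, 468 ± 155 in R, 443 ± 71.3 in RO and 251 ± 89.5 in rPS. Of the rPS libraries, replicate 5 was the lowest in 31 of the 44 genes, and the same share over all genes was not computed. Replicate 5 also had the lowest summed B cell markers of the 28 libraries, 521 CPM. The part of cell composition in these values was not tested.

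**Figure D1:**
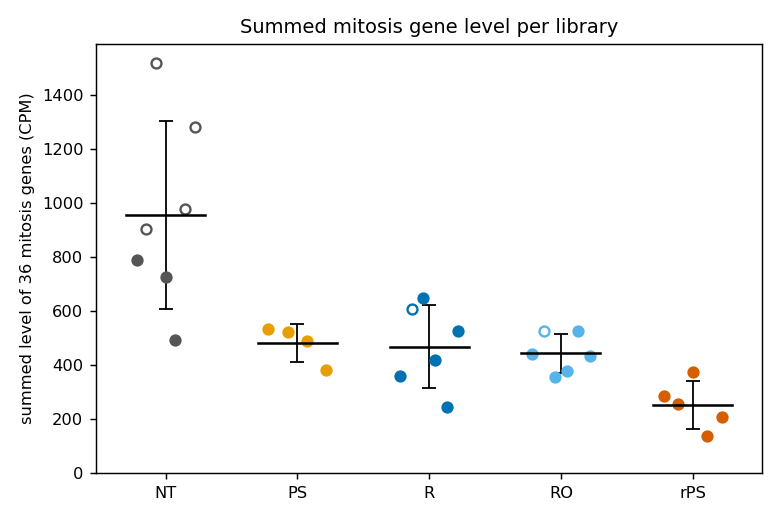
Summed level of the 36 mitosis genes that have a value in every library, in CPM, with 1 point per library by group. Open points are the 6 libraries that stand apart, the bar is the group mean and the whiskers are 1 SD. The 5 rPS libraries sit between 135 and 375 CPM, below every NT and PS library, and the open NT points include the 4 highest values.

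Within NT, the libraries that stand apart carried more of these transcripts. The 4 such NT libraries had a summed level of 1170 ± 286 CPM and the other 3 of 670 ± 156 CPM. In 41 of the 44 genes the mean was higher in the 4 than in the 3. The share of all genes with that order was not computed, so this count alone does not set the 44 apart. Some marker lists of other cells differed the same way and others did not. Summed neutrophil precursor markers were 24.3 to 248 CPM in the 4 and 0.894 to 5.1 CPM in the 3, and summed plasma cell markers 3240 to 5840 and 1080 to 2220 CPM. Neutrophil, dendritic cell and NK cell sums were also higher in each of the 4 than in any of the 3. Monocyte and macrophage sums were too, but that list and the T cell list define which libraries stand apart. B cell sums overlapped, at 2690 to 4640 and 2530 to 5370 CPM, germinal centre B cell sums at 28.1 to 45.7 and 24.3 to 29.3 CPM, and erythroid sums were lower on average, at 905 to 2080 and 1500 to 4340 CPM. Of the other 3, replicate 5 nearly stood apart, with mean log2 CPM of 6.02 for T cell and 5.91 for monocyte and macrophage markers. Its summed T cell markers were 1190 CPM, against 4900 and 5640 CPM in replicates 2 and 6. The 6 libraries that stand apart and RO replicate 7 were then left out. In that fit 32 genes were called lower in rPS than in the 3 remaining NT libraries, beside 3.19% of all genes called, and the median was -1.50. No longer called were Mki67, Foxm1, Ube2c, Aurka, Aurkb, Birc5, Incenp, Cenpf, Kif23, Anln and Ect2. Their log2 fold changes in that fit ran from -1.59 to -0.24, with edgeR adjusted p of 0.0528 to 0.216. The counts against NT were then 2 for R (Cep55 and Stmn1), beside 0.241% of all genes called and with a median of -0.71. By edgeR they were 0 for RO, beside 0.0118%, with a median of -0.61 and 10 at an unadjusted p under 0.05, and 0 for PS, beside 0.0118%, with a median of -0.43 and 4 at an unadjusted p under 0.05.

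**Figure D2:**
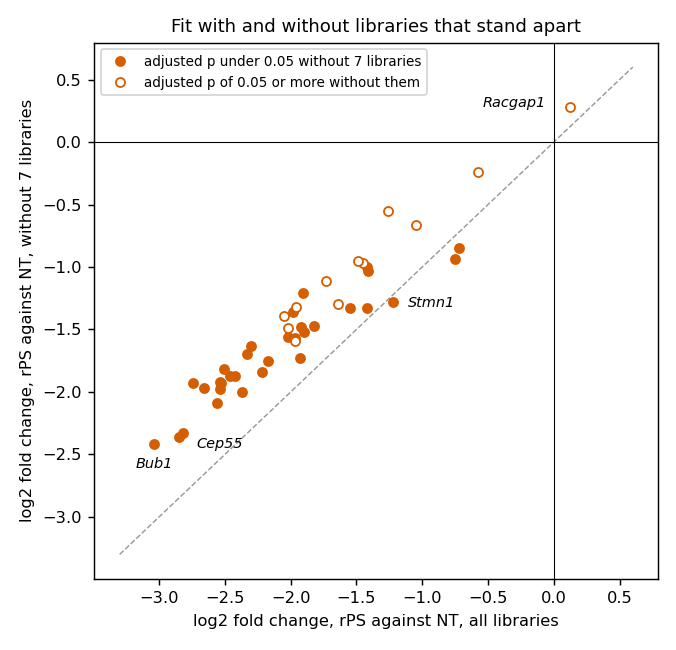
Log2 fold change of each of the 44 genes between rPS and NT with all libraries (horizontal axis) and without the 6 libraries that stand apart and RO replicate 7 (vertical axis). Each point is a gene, filled where its adjusted p stayed under 0.05 without those libraries, and the dashed line marks equal values. Most points lie above the line, the median moving from -1.97 to -1.50, and 32 are filled.

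Many mitotic promoters hold the cell cycle genes homology region (CHR), a short element near the start site that is bound by MuvB complexes, which repress these genes in resting cells and activate them with B-Myb and FoxM1 as cells approach mitosis. RefSeq promoter windows (build GRCm38.p6, 250 bases before to 50 after the start, matched by symbol) were at hand for 37 of the 44 genes, in 40 windows. Searched on both strands, TTTGAA or TTCGAA was found in 32 of the 40 windows (80.0%), against 19.2% of the 32851 windows of all genes. Between 100 bases before and 50 after the start the shares were 77.5% and 8.59%. CCAAT, the box bound by NF-Y, was in 72.5% of the windows of these genes and 37.4% of all, and the E2F cores TTCCCGC or TTGGCGC in 20% and 6.81%. In the 13695 windows of genes that passed the filter on low counts the shares were 14.5% for the CHR (5.75% near the start), 37.5% for CCAAT and 11.3% for E2F. Matches of different motifs may share bases, and a match describes the letters only, not binding. The 100 bases before the start are shown for genes from several roles in which the element lies before the start, 5′ to 3′, with the CHR in capitals (TTCAAA is TTTGAA read on the other strand). Cdc20, Prc1 and Mki67 were taken as members with high mean CPM in their role, and Top2a, Kif11, Ncapg, Ube2c and Cep55 were added after the windows were read. In order they lie at chr4:118437344-118437443, minus strand; chr7:80294376-80294475, plus strand; chr7:135716380-135716479, minus strand; chr11:99024190-99024289, minus strand; chr19:37376282-37376381, plus strand; chr5:45669825-45669924, plus strand; chr2:164769829-164769928, plus strand; and chr19:38054941-38055040, plus strand.
Cdc20: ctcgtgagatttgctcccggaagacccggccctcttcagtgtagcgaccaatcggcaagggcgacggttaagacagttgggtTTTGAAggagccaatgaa
Prc1: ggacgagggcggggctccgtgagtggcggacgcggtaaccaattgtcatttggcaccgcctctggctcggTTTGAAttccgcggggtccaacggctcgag
Mki67: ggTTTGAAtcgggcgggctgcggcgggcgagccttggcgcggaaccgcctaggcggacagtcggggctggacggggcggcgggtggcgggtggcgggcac
Top2a: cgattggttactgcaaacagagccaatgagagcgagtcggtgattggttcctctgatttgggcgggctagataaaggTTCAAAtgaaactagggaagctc
Kif11: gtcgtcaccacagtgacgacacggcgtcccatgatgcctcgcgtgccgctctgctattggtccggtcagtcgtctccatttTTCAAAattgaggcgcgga
Ncapg: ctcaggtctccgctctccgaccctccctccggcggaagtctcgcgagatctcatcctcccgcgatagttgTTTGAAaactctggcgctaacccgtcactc
Ube2c: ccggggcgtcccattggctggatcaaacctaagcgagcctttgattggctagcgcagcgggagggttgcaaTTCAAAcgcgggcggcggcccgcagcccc
Cep55: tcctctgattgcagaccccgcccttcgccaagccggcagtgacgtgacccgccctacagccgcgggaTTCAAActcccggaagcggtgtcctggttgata
Counted from the start, the element begins at positions -33 to -18 in all of these stretches but that of Mki67, where it begins at -98. Prc1 and Cep55 each have another window with a different start, which is not shown. Counted from those starts, the element begins at -5 in Prc1 and 24 bases after the start in Cep55. The window of Racgap1 holds one beginning 5 bases after the start, and those of Birc5, Ccnb1, Cenpe, Kif18a, Mad2l1, Nek2, Nuf2 and Nusap1 hold none.

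**Figure D3:**
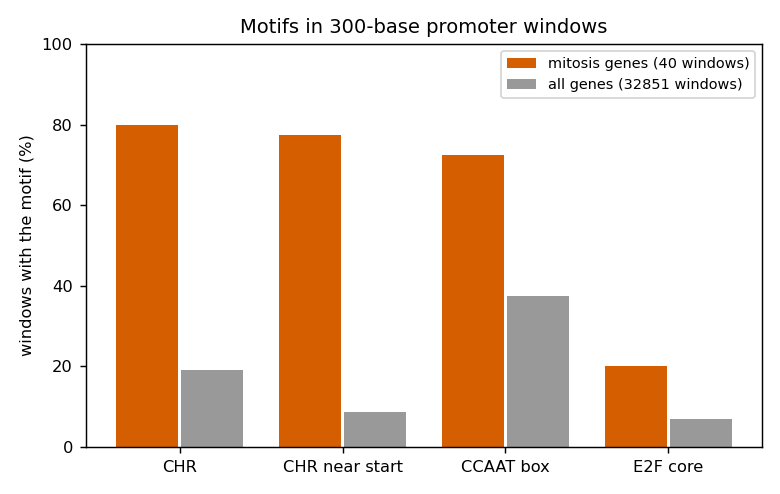
Share of 300-base promoter windows that hold each motif, in percent, for the mitosis genes (40 windows) and for all genes (32851 windows). The CHR was searched in the whole window and, as CHR near start, between 100 bases before and 50 after the start, where it was found in 77.5% of the windows of mitosis genes and 8.59% of all.

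The genes are taken below by role. Levels are CPM, values of PS and rPS are listed in order of replicate number, and differences are log2 fold changes ± the standard error of edgeR's quasi-likelihood fit with p-values adjusted over all genes tested. Levels are not comparable between genes, since CPM is not divided by transcript length. A gene is said to fall in a group where it was called lower than in NT. Uncalled genes were lower too: all 44 fold changes against NT were below 0 in R, RO and PS. The medians over all genes there were -0.01, -0.03 and -0.03. Of all genes, 12.0% were called lower in rPS, 0.803% in R and 4.12% in PS.

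Among the kinases, cyclins and regulators of mitotic entry, all 9 were called lower in rPS than in NT (median -1.93), 3 of 9 in R and 2 of 9 in PS. Ccna2, cyclin A2, which works with Cdk2 and Cdk1 from S phase into early mitosis, measured 14.7 to 47 CPM (median 25.3) in NT, 13.7, 12.8, 12.1 and 10.5 in PS, 5.61 to 21.3 (median 11.8) in R, 8.54 to 14 (median 11.2) in RO and 5.79, 4.57, 9.61, 2.1 and 3.57 in rPS. The rPS libraries were all below the NT and PS libraries, and the PS and RO libraries all below NT. Ccna2 fell, with log2 changes of -2.42 ± 0.36 (adjusted p = 0.000163) in rPS and -1.13 ± 0.36 (adjusted p = 0.0494) in PS, and its value in R was -1.13 ± 0.31 (adjusted p = 0.0756). Ccnb2, cyclin B2, the partner of Cdk1 at mitotic entry, measured 5.47 to 24.6 CPM (median 8.98) in NT, 4.23, 4, 4.21 and 4.41 in PS, 2.62 to 5.67 (median 4.04) in R, 2.03 to 5.84 (median 3.96) in RO and 2.89, 1.6, 2.46, 0.525 and 2.26 in rPS. PS and rPS did not overlap NT, whereas R and RO did. Its change against NT was -2.53 ± 0.39 (adjusted p = 0.000237) in rPS, -1.43 ± 0.33 (adjusted p = 0.0367) in R and -1.38 ± 0.39 (adjusted p = 0.0413) in PS, and in RO, uncalled, -1.45 ± 0.33 (adjusted p = 0.093).

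Cdk1 itself, the central mitotic kinase, measured 4.68 to 13.6 CPM (median 7.27) in NT, 3.72, 5.44, 4.31 and 4.75 in PS, 2.36 to 5.67 (median 3.24) in R, 2.98 to 5.1 (median 4.28) in RO and 1.45, 0.799, 2.96, 0.525 and 1.69 in rPS, and every rPS library lay below every NT and PS library. Cdk1 fell, with a log2 change of -2.54 ± 0.36 (adjusted p = 0.000128) in rPS, while in R the value was -1.11 ± 0.30 (adjusted p = 0.0714). Nek2, a kinase of centrosome separation, measured 6.19 to 17.8 CPM (median 12.2) in NT, 8.72, 9.6, 8.52 and 8.02 in PS, 2.76 to 8.84 (median 4.22) in R, 5.68 to 9.67 (median 7.35) in RO and 3.62, 3.54, 4.68, 0.787 and 4.33 in rPS. R overlapped NT in range through replicate 4, at 8.84 CPM, and rPS did not overlap NT. Nek2 fell, with log2 changes of -1.93 ± 0.33 (adjusted p = 0.000586) in rPS and -1.42 ± 0.30 (adjusted p = 0.0188) in R. Foxm1, the transcription factor that activates many late cell cycle genes, measured 13.6 to 28.3 CPM (median 20.3) in NT, 15.8, 11.7, 12.4 and 17.2 in PS, 6.62 to 14.9 (median 10.5) in R, 10.6 to 14.4 (median 12.4) in RO and 4.16, 5.48, 16.3, 6.82 and 6.4 in rPS. In rPS 4 libraries were below all NT libraries and replicate 4 was not. Foxm1 fell, with log2 changes of -1.45 ± 0.27 (adjusted p = 0.00137) in rPS and -1.05 ± 0.25 (adjusted p = 0.0426) in R. Of the remaining 4, Ccnb1 (cyclin B1), Plk1 (polo-like kinase 1), Cdca3 (an adaptor for the turnover of Wee1) and Aurka (Aurora A, the centrosomal kinase), the change in rPS was -1.97, -1.91, -1.55 and -1.05, each called.

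The chromosomal passenger complex corrects faulty attachments and marks the cleavage site. All 4 of its genes fell in rPS and none passed in R, RO or PS. Incenp, its scaffold, measured 38.3 to 77 CPM (median 43.2) in NT, 44.4, 40, 39.2 and 36.4 in PS, 29.4 to 46.3 (median 33.7) in R, 35.4, 38.8, 33.2, 35 and 41.5 in the 5 RO libraries and 37.1, 33.2, 36.7, 31.9 and 29.5 in rPS. The rPS libraries were below all NT libraries, but by little: the change was -0.58 ± 0.15 (adjusted p = 0.0104), and without the libraries that stand apart it was -0.24 (adjusted p = 0.216). Aurkb, the kinase of the complex, Birc5 (survivin) and Cdca8 (borealin), which place it at centromeres, changed -1.73, -1.64 and -2.02 in rPS. Aurkb and Birc5 overlapped NT through rPS replicate 4, at 14.5 and 6.41 CPM, and Cdca8 did not overlap. Without the libraries that stand apart, Cdca8 alone of the 4 remained called in rPS.

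Of the kinetochore and spindle checkpoint genes, all 9 were called lower in rPS (median -1.98), 4 of 9 in R and 2 of 9 in PS. Bub1, the checkpoint kinase that recruits other checkpoint proteins to kinetochores, measured 2.96 to 12.1 CPM (median 8.08) in NT, 2.82, 2.88, 2.31 and 3.5 in PS, 0.786 to 3.68 (median 2.27) in R, 1.34 to 3.43 (median 2.34) in RO and 1.81, 1.14, 0.739, 0.131 and 0.753 in rPS. Its rPS libraries were below those of NT and PS, and replicate 5 held a single count. The fall in rPS, -3.04 ± 0.44 (adjusted p = 0.000161), was the lowest fold change of the 44, and Bub1 also fell, with log2 changes of -1.82 ± 0.37 (adjusted p = 0.0184) in R and -1.39 ± 0.42 (adjusted p = 0.0464) in PS. Bub1b, which encodes BubR1 of the complex that inhibits Cdc20, measured 12.4 to 41.9 CPM (median 27.2) in NT, 19.1, 15.4, 13.1 and 13 in PS, 5.39 to 21.1 (median 9.99) in R, 12.2 to 21.6 (median 13.2) in RO and 6.33, 7.65, 12.3, 2.76 and 5.64 in rPS. All rPS libraries were below NT, and R overlapped NT. Bub1b fell, with log2 changes of -1.98 ± 0.34 (adjusted p = 0.000631) in rPS and -1.26 ± 0.31 (adjusted p = 0.0442) in R.

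Ttk, the kinase Mps1 at the head of the checkpoint, measured 1.99 to 8.08 CPM (median 3.73) in NT, 1.92, 2.4, 2.1 and 1.13 in PS, 0.585 to 3.04 (median 0.969) in R, 0.61 to 2.5 (median 1.89) in RO and 0.904, 1.03, 0.493, 0.262 and 1.13 in rPS. The rPS values rest on few counts. All were below NT and, by less than the rounding shown, below PS. Ttk fell, with log2 changes of -2.66 ± 0.46 (adjusted p = 0.000628) in rPS and -1.78 ± 0.39 (adjusted p = 0.0273) in R. Nuf2, of the Ndc80 complex that binds microtubules, measured 3.16 to 12.1 CPM (median 8.33) in NT, 3.85, 4.8, 3.05 and 2.26 in PS, 1.01 to 5.51 (median 2.28) in R, 2.13 to 4.08 (median 2.63) in RO and 1.81, 1.71, 1.23, 0.656 and 1.51 in rPS. Nuf2 fell, with log2 changes of -2.56 ± 0.38 (adjusted p = 0.000161) in rPS, -1.55 ± 0.32 (adjusted p = 0.0197) in R and -1.24 ± 0.37 (adjusted p = 0.0445) in PS, with only the rPS libraries clear of the NT range. Cenpf, a large kinetochore protein of late G2 and mitosis, measured 16 to 63.6 CPM (median 35.4) in NT, 20.8, 22.7, 17.2 and 13.2 in PS, 8.08 to 33.2 (median 17) in R, 11.4 to 23.9 (median 15.1) in RO and 11.6, 8.79, 15, 2.76 and 6.96 in rPS. Cenpf fell, with a log2 change of -2.02 ± 0.37 (adjusted p = 0.000991) in rPS, without overlap with NT, and was -0.96 ± 0.33 (adjusted p = 0.159) in R. The motor Cenpe and Spc25 changed -1.90 and -1.82 in rPS. Mad2l1 (the checkpoint effector Mad2) and Ndc80 gave the smallest falls of the role, -0.75 and -0.72, and both remained called without the libraries that stand apart, at -0.94 and -0.85.

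Both of the 2 partners of the anaphase-promoting complex fell in rPS. Cdc20, its activator in anaphase, measured 10.2 to 30.1 CPM (median 15.6) in NT, 12.1, 10.6, 10.9 and 10.4 in PS, 5.26 to 10.6 (median 7.59) in R, 7.38 to 13.3 (median 9.85) in RO and 6.51, 5.48, 10.1, 6.17 and 5.46 in rPS. The rPS libraries were all below those of NT and PS, by a margin set by replicate 4, and the lowest NT library overlapped R. Cdc20 fell, with log2 changes of -1.42 ± 0.25 (adjusted p = 0.000788) in rPS and -1.26 ± 0.23 (adjusted p = 0.00831) in R, with -0.86 ± 0.23 (adjusted p = 0.119) in RO. Ube2c, its ubiquitin-conjugating enzyme, fell, with a log2 change of -1.97 ± 0.49 (adjusted p = 0.00788) in rPS but was -0.37 ± 0.42 (adjusted p = 0.692) in R, and rPS replicate 4, at 6.65 CPM, lay within the NT range of 2.98 to 16.6 CPM.

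All 7 kinesin motors were called lower in rPS (median -2.33), 4 of 7 in R and 2 of 7 in PS. Kif11, Eg5, which pushes spindle poles apart, measured 17.3 to 54.2 CPM (median 29.5) in NT, 18.9, 17.8, 17.6 and 14.3 in PS, 6.73 to 19.8 (median 12.2) in R, 16.1, 15.6, 13.5, 12.5 and 17.7 in the 5 RO libraries and 6.87, 7.54, 10.6, 1.31 and 3.76 in rPS. The rPS values were below all NT, PS and RO values, and the fold change was -2.46 ± 0.38 (adjusted p = 0.000259) in rPS and -1.37 ± 0.33 (adjusted p = 0.0442) in R. Kif15, a second motor of spindle bipolarity, measured 9.97 to 29.7 CPM (median 24.3) in NT, 9.36, 9.6, 9.78 and 6.67 in PS, 4.15 to 15.2 (median 6.7) in R, 6.39 to 12.5 (median 9.95) in RO and 4.16, 3.88, 6.9, 3.15 and 2.45 in rPS. Kif15 fell, with log2 changes of -2.33 ± 0.32 (adjusted p = 0.000116) in rPS, -1.44 ± 0.29 (adjusted p = 0.0136) in R and -1.21 ± 0.33 (adjusted p = 0.0393) in PS, and PS and rPS did not overlap NT. Kif20a, a motor of the central spindle and cytokinesis, measured 8.87 to 26.9 CPM (median 15.3) in NT, 8.59, 10.6, 10.9 and 9.26 in PS, 4.27 to 9.81 (median 6.18) in R, 9.35, 7.35, 6.81, 7.18 and 8.25 in the 5 RO libraries and 2.53, 3.31, 6.16, 2.76 and 3.2 in rPS. RO, PS and R reached into the NT range and rPS did not. Kif20a fell, with log2 changes of -2.30 ± 0.28 (adjusted p = 4.29e-05) in rPS and -1.44 ± 0.25 (adjusted p = 0.0065) in R.

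Kif2c, a microtubule depolymerase at centromeres, measured 3.03 to 16.7 CPM (median 6.93) in NT, 3.72, 2.72, 3.37 and 2.49 in PS, 0.898 to 5.68 (median 2.34) in R, 2.41 to 4.8 (median 2.88) in RO and 1.63, 1.6, 1.72, 0.394 and 0.753 in rPS, with rPS below all NT and PS libraries. Its falls were -2.74 ± 0.44 (adjusted p = 0.000397) in rPS, -1.66 ± 0.38 (adjusted p = 0.033) in R and -1.39 ± 0.43 (adjusted p = 0.0479) in PS. Kif23, which with Racgap1 forms the centralspindlin complex at the spindle midzone, measured 16.4 to 50.3 CPM (median 37.5) in NT, 16.7, 24.3, 18.5 and 11.4 in PS, 10.1 to 60.3 (median 15) in R, 10.9 to 27.9 (median 14.8) in RO and 18.8, 13.2, 16.5, 11.7 and 11.9 in rPS. R replicate 3, one of the libraries that stand apart, held the highest Kif23 value of all 28, and rPS overlapped NT. Kif23 gave the smallest fall of the motors in rPS, -1.26 ± 0.37 (adjusted p = 0.0196), and was -0.55 (adjusted p = 0.176) without the libraries that stand apart. Kif4 (a chromosome arm motor) and Kif18a (which damps chromosome movement at the metaphase plate) fell, with log2 changes of -2.37 and -1.42 in rPS.

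Spindle and microtubule proteins were called lower in rPS in 6 of 6 genes, in R in 4 and in PS in 3. Stmn1, stathmin, which binds free tubulin and destabilises microtubules, measured 19.8 to 33.8 CPM (median 25.7) in NT, 15.9, 19, 14.6 and 14 in PS, 5.28 to 14.6 (median 9.38) in R, 14 to 22.3 (median 15.6) in RO and 12.7, 16.2, 11.6, 8.13 and 9.78 in rPS. The R and rPS libraries were all below NT, as were those of PS, and R had the lowest mean, 10 ± 3.92 CPM against 11.7 ± 3.07 CPM in rPS. Stmn1 fell, with log2 changes of -1.44 ± 0.21 (adjusted p = 0.00057) in R, -1.22 ± 0.22 (adjusted p = 0.000898) in rPS and -0.78 ± 0.23 (adjusted p = 0.0451) in PS, and the difference between rPS and R was 0.22 ± 0.22 (adjusted p = 0.683). Ckap2l, a spindle pole protein, measured 3.71 to 13.8 CPM (median 8.57) in NT, 3.21, 3.36, 3.89 and 2.26 in PS, 1.35 to 3.7 (median 2.86) in R, 2.41 to 5.28 (median 3.41) in RO and 2.17, 0.914, 1.97, 0.918 and 2.07 in rPS. R and rPS lay below the NT range, and PS touched it through replicate 4. Its changes were -2.51 ± 0.36 (adjusted p = 0.000128) in rPS, -1.78 ± 0.31 (adjusted p = 0.0065) in R and -1.49 ± 0.35 (adjusted p = 0.0326) in PS.

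Hmmr, a spindle protein and hyaluronan receptor, measured 5.57 to 14.4 CPM (median 10.2) in NT, 6.28, 4.96, 5.26 and 2.37 in PS, 1.46 to 5.22 (median 3.72) in R, 2.92 to 4.67 (median 4.56) in RO and 2.89, 1.37, 2.22, 0.131 and 0.564 in rPS, and R, RO and rPS did not reach NT. Hmmr fell, with log2 changes of -2.82 ± 0.44 (adjusted p = 0.000285) in rPS and -1.52 ± 0.37 (adjusted p = 0.0443) in R, while RO, at -1.25 ± 0.37 (adjusted p = 0.147), was not called. Prc1, the bundler of antiparallel microtubules at the midzone, measured 16.2 to 35.4 CPM (median 25.1) in NT, 20.1, 19, 16.3 and 9.94 in PS, 8.87 to 20 (median 15.9) in R, 11.6 to 18.6 (median 14.7) in RO and 11.2, 10.3, 10.6, 8.53 and 8.84 in rPS. The fall was -1.41 ± 0.22 (adjusted p = 0.000223) in rPS, without overlap, and -0.83 ± 0.20 (adjusted p = 0.0408) in R. Nusap1, a microtubule stabiliser near chromosomes, measured 9.14 to 20.3 CPM (median 13.9) in NT, 5.64, 5.12, 5.05 and 4.63 in PS, 3.14 to 15.4 (median 7.6) in R, 4.54 to 10.4 (median 6.86) in RO and 5.97, 5.48, 3.94, 2.1 and 2.26 in rPS. PS and rPS were both below NT and overlapped each other, and Nusap1 fell, with log2 changes of -1.56 ± 0.38 (adjusted p = 0.0326) in PS and -1.92 ± 0.36 (adjusted p = 0.00137) in rPS. Tpx2, the activator of Aurora A, fell, with a log2 change of -2.17 in rPS.

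All 3 genes of chromosome structure and surface were called lower in rPS, and Top2a and Ncapg were called lower in R and PS as well. Top2a, topoisomerase II alpha, which untangles sister chromatids, measured 59.3 to 195 CPM (median 121) in NT, 69.3, 66.1, 58.2 and 50.3 in PS, 21.2 to 62.8 (median 41.3) in R, 48.2 to 73.2 (median 52.5) in RO and 32.4, 27.1, 25.6, 11.8 and 13.7 in rPS. The rPS libraries were below all libraries of NT, PS and RO and overlapped R. Its fold change was -2.54 ± 0.31 (adjusted p = 2.69e-05) in rPS, the smallest adjusted p of the 44, -1.64 ± 0.27 (adjusted p = 0.00389) in R and -1.08 ± 0.31 (adjusted p = 0.042) in PS. Ncapg, a condensin I subunit, measured 8.04 to 21.3 CPM (median 14.8) in NT, 8.34, 10.7, 6.73 and 4.86 in PS, 3.14 to 8.02 (median 6.24) in R, 6.24 to 8.25 (median 7.1) in RO and 4.52, 3.54, 3.94, 1.71 and 2.07 in rPS. R and rPS lay below NT, R by a narrow margin, and the falls were -2.22 ± 0.29 (adjusted p = 7.47e-05) in rPS, -1.35 ± 0.26 (adjusted p = 0.0103) in R and -0.94 ± 0.29 (adjusted p = 0.0479) in PS. Mki67, which encodes Ki-67, the coat of mitotic chromosomes and a common proliferation marker, measured 125 to 539 CPM (median 271) in NT, 146, 138, 144 and 88.9 in PS, 70.2 to 235 (median 169) in R, 78.6 to 155 (median 116) in RO and 76.5, 67.6, 128, 25.8 and 54.7 in rPS. rPS replicate 4 reached the NT range, and the fall in rPS was -2.05 ± 0.36 (adjusted p = 0.000777). Without the libraries that stand apart it was -1.39 and not called (adjusted p = 0.0528). In R Mki67 was -0.82 ± 0.32 (adjusted p = 0.237), and in RO -1.31 ± 0.33 (adjusted p = 0.108).

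The 4 genes of cytokinesis differed from each other. Cep55, which brings the abscission machinery to the midbody, measured 3.44 to 10.4 CPM (median 8.73) in NT, 5, 5.6, 5.47 and 4.07 in PS, 0.553 to 3.01 (median 1.07) in R, 3.86, 4.72, 3.12, 2.68 and 4.08 in the 5 RO libraries and 1.63, 1.03, 1.23, 0.525 and 0.941 in rPS. R and rPS lay below every NT and every PS library, while RO and PS overlapped NT. Cep55 fell, with log2 changes of -2.85 ± 0.38 (adjusted p = 7.63e-05) in rPS and -2.57 ± 0.34 (adjusted p = 0.000194) in R, and was -1.04 ± 0.33 (adjusted p = 0.172) in RO and -0.61 ± 0.35 (adjusted p = 0.221) in PS. Both falls stayed called under every other setting tried, 23 for rPS and 24 for R. R replicate 3, which stands apart, was the highest of R at 3.01 CPM.

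Racgap1, the partner of Kif23 in centralspindlin, was the 1 gene of the 44 not called in rPS against NT. It measured 31.6 to 78.2 CPM (median 49.9) in NT, 33, 39, 34.9 and 32.4 in PS, 39.3 to 59.7 (median 47) in R, 35.8, 51, 43.4, 44.8 and 36 in the 5 RO libraries and 68.4, 57.1, 30.5, 73.5 and 37.8 in rPS. All groups overlapped NT, every R library was above every PS library, and the highest and lowest rPS libraries spanned most of the NT range. The change in rPS was 0.12 ± 0.20 (adjusted p = 0.687), with the sign turning to -0.06 with 3 cell type covariates and to -0.01 without rPS replicate 5, and it was -0.50 ± 0.22 (adjusted p = 0.123) in PS. Anln, anillin, which links actin and septins at the cleavage furrow, measured 5.16 to 25.1 CPM (median 13.8) in NT, 6.54, 5.12, 6.52 and 5.2 in PS, 4.27 to 12.6 (median 7.44) in R, 3.12 to 7.91 (median 4.21) in RO and 5.43, 3.2, 4.68, 1.44 and 3.57 in rPS. rPS replicate 1 reached into the NT range. Anln fell, with log2 changes of -1.96 ± 0.36 (adjusted p = 0.00117) in rPS and -1.27 ± 0.37 (adjusted p = 0.0442) in PS, and was -0.77 ± 0.32 (adjusted p = 0.263) in R. Ect2, an exchange factor needed for cleavage, fell, with a log2 change of -1.49 in rPS.

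**Figure D4:**
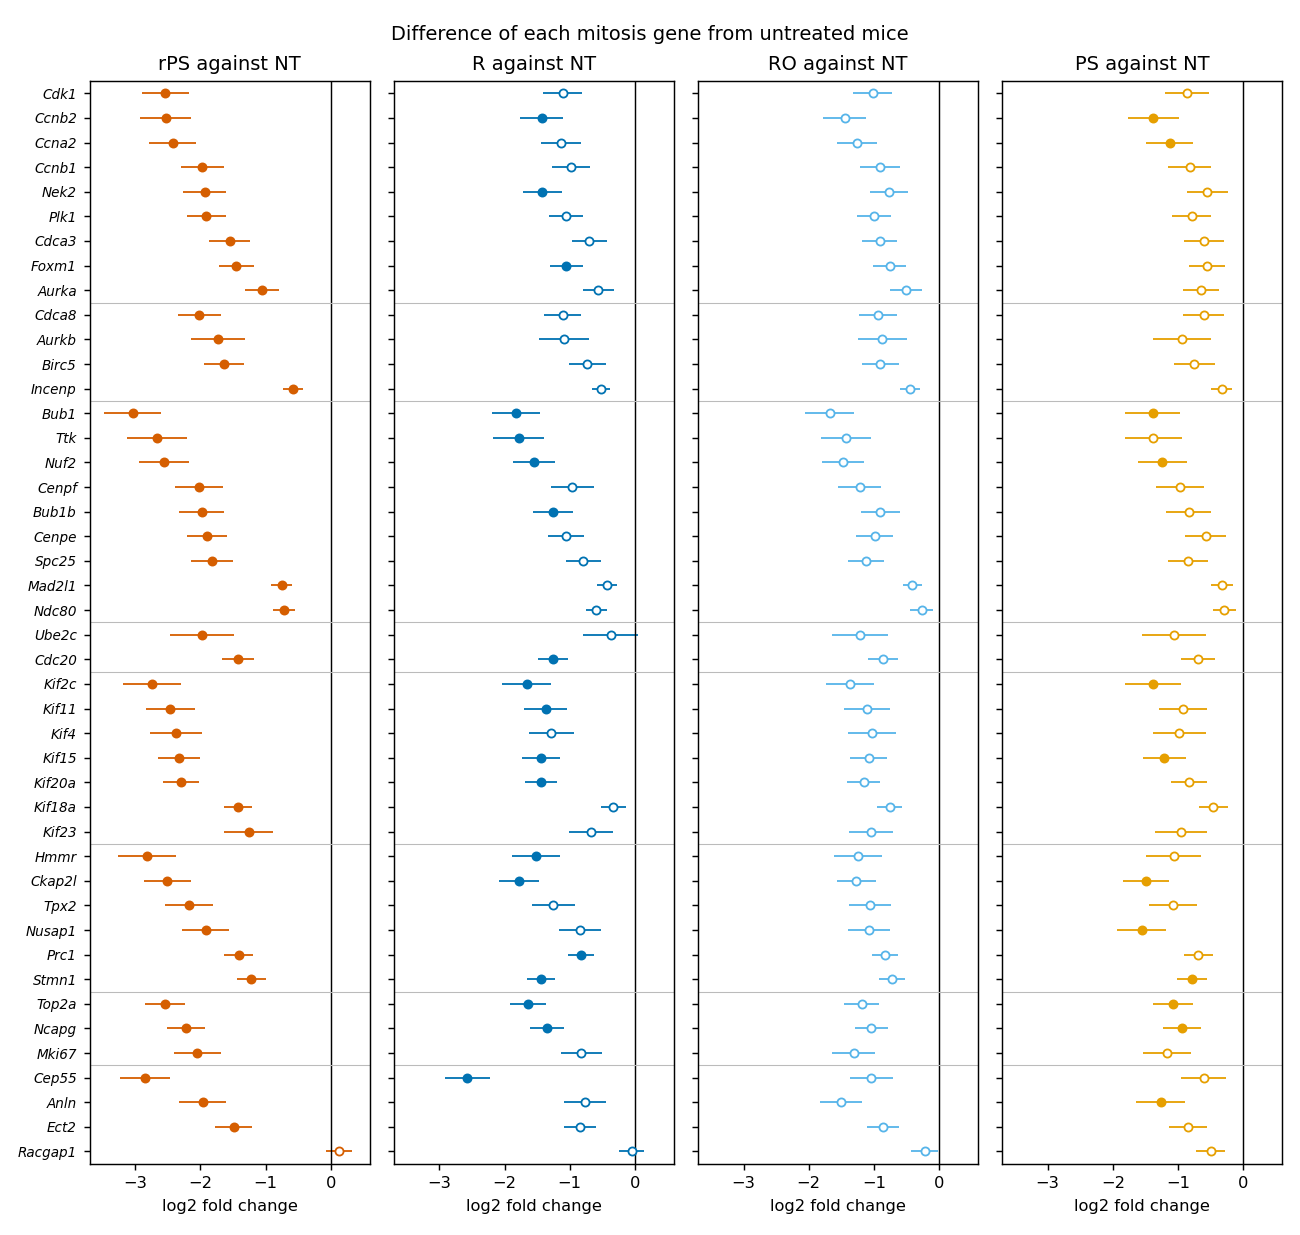
Log2 fold change against NT of each of the 44 genes in rPS, R, RO and PS, with whiskers of 1 standard error. Genes are grouped by role between grey lines, in the order of the text, and filled points have an adjusted p under 0.05. In rPS 43 points are filled, in R 19, in RO 0 and in PS 12, and Racgap1 in the last row lies near 0 in rPS and R.

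Whether the drug added to the carrier is read from rPS against PS, a difference that does not involve the NT level. The estimate of spread behind its p-values is still shared by all groups, NT among them. The median of the 44 was -1.07, against 0.03 over all genes, and 43 of 44 fold changes were below 0. Only Cep55 was called, at -2.24 ± 0.40 (adjusted p = 0.0276), beside 0.0873% of all genes called, while 35 genes were lower at an unadjusted p under 0.05, beside 2.75% of all genes. In 23 genes every rPS library was below every PS library, beside 1.8% of all genes. Kif20a, at -1.47 ± 0.30 (adjusted p = 0.0521), and Top2a, at -1.46 ± 0.32 (adjusted p = 0.072), came closest to the threshold among the rest. The Cep55 call was lost when any of 6 of the 9 libraries was left out in turn (PS replicates 1, 3 and 4, rPS replicates 2, 5 and 7), its fold change staying between -2.44 and -2.05 over all alternatives. Without the libraries that stand apart, which include none of PS or rPS, 4 genes were called, beside 0.241% of all genes: Cep55, Kif20a, Top2a and Plk1. In a fit of PS and rPS only, 43 of the 44 were tested and 0 were called by edgeR, beside 0.0383% of all genes.

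Free rapamycin and the empty carrier were compared directly as well. In R against PS Cep55 was -1.96 ± 0.37 (adjusted p = 0.0537), and no gene of the 44 passed by edgeR, beside 0.0175% of all genes, with 5 at an unadjusted p under 0.05, beside 8.17% of all. With R replicate 3 left out Cep55 passed. The median of the 44 in this comparison was -0.24. In RO against PS edgeR called none of the 44 (median -0.13, 0 at an unadjusted p under 0.05, beside 2.71% of all genes), beside 0.0% of all genes called, with Cep55 at -0.44 ± 0.37 (adjusted p = 0.986).

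The 3 ways of giving the drug were compared at the same dose. Between rPS and R none of the 44 was called by edgeR, beside 0.0116% of all genes, and 3 by DESeq2, beside 0.553%. In the edgeR fit 30 had an unadjusted p under 0.05, all lower in rPS, beside 5.52% of all genes, and the median was -0.88. Kif18a was nearest, at -1.08 ± 0.22 (adjusted p = 0.0931), with every rPS library below every R library. Between rPS and RO edgeR called none, beside 0.0233% of all genes, and DESeq2 6, beside 0.588%. An unadjusted edgeR p under 0.05 was found in 37, beside 9.02%, and the median was -0.91. Cep55, at -1.80 ± 0.39 (adjusted p = 0.0828), and Top2a, at -1.35 ± 0.30 (adjusted p = 0.0882), were nearest. Between R and RO edgeR called none, beside 0.0% of all genes, DESeq2 1, beside 0.0873%, and limma voom 2, beside 0.954%. Here 5 had an unadjusted edgeR p under 0.05, beside 3.37%, and the median was -0.09, with Cep55 at -1.52 ± 0.35 (adjusted p = 0.321). The interaction asks whether adding rapamycin to the carrier changed a gene differently from giving it free. It gave no call among the 44 by edgeR, beside 0.0175% of all genes, and 1 by limma voom, beside 10.5%. With edgeR 2 had an unadjusted p under 0.05, beside 5.03%, and the median was 0.11. These p-values do not show that the routes act alike.

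**Figure D5:**
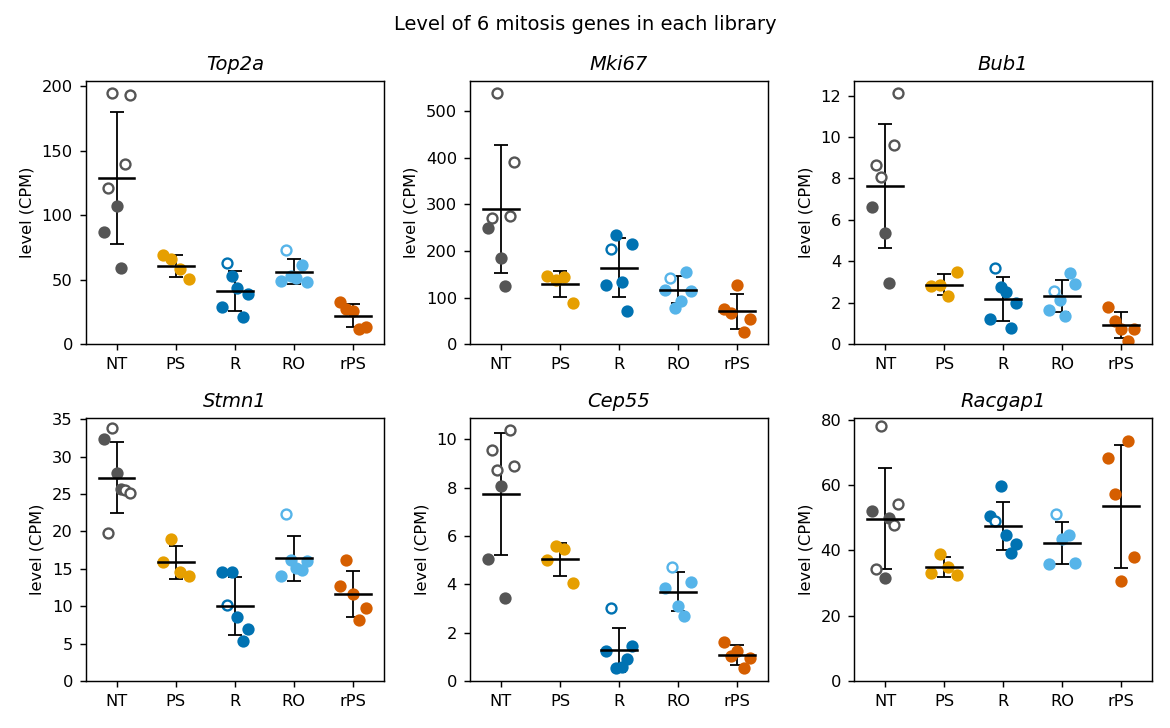
Level of 6 mitosis genes in each library, in CPM, with 1 point per library, the group mean as a bar and 1 SD as whiskers. Open points are the libraries that stand apart. Top2a, Mki67 and Bub1 are lowest in rPS, Cep55 is at 1.29 ± 0.913 CPM in R and 1.07 ± 0.404 CPM in rPS against 5.03 ± 0.694 CPM in PS, Stmn1 has its lowest mean in R, and Racgap1 in every other group overlaps NT.

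Several marker lists of other cells of the spleen were also lower in rPS than in NT, and some of them were as low in PS. Of 10 germinal centre B cell markers tested, 8 were called lower in rPS than in NT (median -2.34), and their summed level was 24.3 to 45.7 CPM in NT, 20.4, 29, 30.4 and 31 CPM in PS, 17.7 to 35.2 CPM in RO, 9.32 to 12.1 CPM in 5 R libraries and 39.6 CPM in R replicate 3, and 8.5 to 12.1 CPM in rPS. Plasma cell markers were called lower in 9 of 10 (median -1.61), and neutrophil markers in 12 of 12 (median -4.56), the latter summing to 44.5 to 4780 CPM in NT, 56.2 to 87.7 CPM in PS and 19.3 to 133 CPM in rPS. Of the T cell markers, 0 of 20 were called by edgeR, with a median of 0.48, and of erythroid markers 0 of 17, with a median of 0.11. Called lower were also 7 of 9 NK cell, 5 of 9 dendritic cell, 6 of 16 monocyte and macrophage, 3 of 6 neutrophil precursor and 2 of 14 B cell markers, beside the 12.0% of all genes called lower, which is close to the share of B cell markers. No marker of these lists was called higher. In PS against NT, 9 of 12 neutrophil (median -4.87), 3 of 6 neutrophil precursor (-5.57) and 4 of 16 monocyte and macrophage markers (-1.49) were called lower. So were 5 of 9 NK cell, 3 of 10 plasma cell, 2 of 9 dendritic cell and 1 of 10 germinal centre B cell markers, beside 4.12% of all genes. In rPS against PS the medians of these lists, in the same order, were 0.08, 1.45, 0.40, -0.53, -0.67, -0.24 and -1.92. Only germinal centre B cell markers were called among these, 3 of 10 lower, beside 0.0873% of all genes called. Mpo, the peroxidase of neutrophil precursors, ran from 0.55 to 177 CPM in NT and from 0.262 to 3.88 CPM in rPS, Ncr1, a receptor of NK cells, from 10.2 to 42.9 and from 1.71 to 7.65 CPM, and Klf1, an erythroid factor, from 0.245 to 18.8 and from 1.31 to 25.6 CPM. With the mean log2 CPM of B cell, monocyte and macrophage, and erythroid markers as covariates, 39 of the 44 genes were called lower in rPS than in NT, beside 12.2% of all genes called, and 25 in R, beside 1.67%. In that fit edgeR called 0 in RO, beside 0.396%, and 0 in PS, beside 0.064%, and 13 were called lower in rPS than in PS, beside 0.372%. The part of other dividing cells in the fall was not tested.

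In 16 of the 44 genes an exon overlaps another gene. Ccna2 (with Exosc9), Kif4 (with Pdzd11), Kif20a (with Cdc23), Prc1 (with Rccd1) and Ncapg (with Lcorl) carried fractional counts in 27 or 28 libraries, and since the strand setting is not given in the sources used here, reads of both partners cannot be told apart in these genes.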

How the data were processed

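RNA of magnetically enriched CD3+ spleen cells was measured in 28 libraries. The submitters' processing notes name STAR 2.7.5a, Trimmomatic 0.39, Cuffdiff, Cufflinks 2.1.1 and build GRCm39. The sources used here do not give the counting tool, annotation release or strand setting. The authors deposited 1 table of expected counts per library, not scaled to a common total, with 21.32% to 25.01% of values above 0 fractional. They were rounded to whole numbers. Symbols came from GENCODE M21 (GRCm38), which matched 52082 of 55413 IDs, and no gene coordinates of that build are used; promoter sequences and their coordinates are RefSeq's (GRCm38.p6).

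Groups are those of the labels. All were fitted together by edgeR 4.0.16 in R 4.3.3 (two-sided robust quasi-likelihood test, TMM scaling, filterByExpr by group). Genes listed at 0 in RO replicate 7 (5321, or 31.0% of those tested) were fitted without that library. p-values were Benjamini-Hochberg adjusted over 17188 genes, and genes under 0.05 are called. Levels are CPM over TMM-scaled library size. The deposited counts of no pair of libraries were close to a repeat (lowest chi-square per gene 3.09).

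The 44 genes, the other gene and marker lists and the tests were chosen with earlier results of these data known. Values are given per library for the gene with the highest mean CPM in each role, every gene called in R, RO or PS against NT or in a comparison with 5 or fewer calls, and every gene not called in rPS against NT. Cdk1 was added after its values were seen. Replicate numbers carry no stated pairing. Of the pairs of groups, only R and RO had a correlation over 0.1 between all same-numbered samples. Its lowest was 0.109 and its median 0.354, against a median of 0.231 between differently numbered ones. These medians lay further apart for NT and RO (0.368 and -0.212) and for NT and R (0.215 and -0.27), whose lowest values were -0.301 and -0.372. Replicate 3 stands apart in NT, R and RO alike. With a replicate block, 0 of the 44 genes were called between R and RO and between RO and NT, as without. Between R and NT 10 were called in place of 19. Alternatives were DESeq2 1.42.0 and its size factors, limma 3.58.1 voom with quality weights, no TMM, no low-count filter, library sizes that leave out Malat1 and the haemoglobin, immunoglobulin and mitochondrial genes, a replicate block, 3 cell type covariates, the zeros of RO replicate 7 as values, fits of the compared groups only, and leaving out single libraries or those that stand apart.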

Additional observations from a re-analysis of the deposited data

Results flagged for a closer look

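In 140 sets of values (a gene's libraries in a group of 4 to 7, for the summed level and the 27 genes that the rule names, which leaves out Cdk1), the highest or lowest library was compared with the rest by Dixon's criterion at the 95% level, which chance meets in about 1 of 20 sets. It was met in 16. R replicate 3, a library that stands apart, was the highest of R for Incenp at 46.3 CPM (others 29.4 to 35.4), Kif15 at 15.2 CPM (4.15 to 6.78), Kif23 at 60.3 CPM (10.1 to 17), Kif2c at 5.68 CPM (0.898 to 2.63) and Cep55 at 3.01 CPM (0.553 to 1.44). RO replicate 3, another of those libraries, was the highest of RO for Bub1b at 21.6 CPM (12.2 to 14.4), Kif2c at 4.8 CPM (2.41 to 3.24) and Stmn1 at 22.3 CPM (14 to 16.2). rPS replicate 4 was the highest of rPS for Foxm1 at 16.3 CPM (4.16 to 6.82), Cdc20 at 10.1 CPM (5.46 to 6.51) and Kif20a at 6.16 CPM (2.53 to 3.31). PS replicate 5 was the lowest of PS for Kif15 at 6.67 CPM (9.36 to 9.78) and Mki67 at 88.9 CPM (138 to 146). The other 3 were Nek2 in R replicate 4 at 8.84 CPM (2.76 to 5), Ttk in RO replicate 1 at 0.61 CPM (1.82 to 2.5) and Cenpf in RO replicate 6 at 23.9 CPM (11.4 to 15.7).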

How the results depend on the processing

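The count of the 44 genes called between rPS and NT was 32 to 43 under all alternatives, within 1.5 times of 43, and 42 or 43 with single libraries left out. Of 3050 values of the 27 genes that the rule names (Cdk1 is not among them), over rPS, R, RO and PS against NT and rPS against PS, 3041 kept their sign. The 9 that turned were Racgap1 in rPS against NT (-0.06 with 3 cell type covariates, -0.01 without rPS replicate 5) and in R against NT (0.02 with limma voom, 0.02 with covariates, 0.10 without the libraries that stand apart, 0.09 without NT replicate 4), Incenp in PS against NT (0.00 without the libraries that stand apart), Nek2 in PS against NT (0.00 with covariates) and Kif23 in rPS against PS (0.08 with the replicate block). None of these was called. With single libraries left out Racgap1 ran from -0.01 to 0.28 in rPS and from -0.14 to 0.09 in R.

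The other counts moved. R against NT (19 called) gave 30 with DESeq2 (2.9% of all genes called), 41 with limma voom (40.9%) and 11 with the zeros of RO replicate 7 as values (0.291%). It gave 2 with the compared groups only (0.0639%) and 2 without the libraries that stand apart (0.241%). RO against NT (0) gave 29 with DESeq2 (1.73%) and 42 with voom (46.9%). PS against NT (12) gave 25 with DESeq2 (18.2%), 43 with voom (54.3%) and 2 without TMM (3.96%, near the share of the 44). It gave 0 without a low-count filter (0.176%), with covariates (0.064%), with those zeros as values (0.0291%) or without the libraries that stand apart (0.0118%). rPS against PS (1) gave 8 with DESeq2 (0.297%), 2 with voom (0.0698%), 3 without TMM (0.128%) and 13 with covariates (0.372%). It gave 4 without the libraries that stand apart (0.241%), and 0 with those zeros as values (0.0233%) or the compared groups only (0.0383%). R against PS (0) gave 1 with DESeq2 (0.268%), without TMM (0.0291%), with covariates (0.0989%) or without the libraries that stand apart (0.294%), each time Cep55. With voom it gave 6 (5.85%). rPS against R (0) gave 3 with DESeq2 (0.553%), and rPS against RO (0) gave 6 with DESeq2 (0.588%) and 1 with covariates (0.151%). R against RO (0) gave 1 with DESeq2 (0.0873%) and 2 with voom (0.954%), and the interaction (0) gave 1 with voom (10.5%). Leaving out single libraries gave 7 to 28 for R against NT, 0 to 22 for RO against NT, 0 to 23 for PS against NT, 0 to 5 for rPS against PS, 0 to 1 for R against PS, rPS against R and R against RO, and 0 to 2 for rPS against RO. The share of all genes called moved too. It ran from 0.192% to 4.0% for R against NT and from 0.0116% to 4.9% for RO against NT. For PS against NT it was 0.0114% to 18.2%, and for rPS against PS 0.00584% to 0.169%. The cause of these moves was not tested.

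With replicate number as a block, 10 genes were called in R against NT (0.326% of all genes) and 0 in rPS against PS (0.00582%). The counts of the other pairs of groups stayed within 1.5 times. Without TMM the median of all genes in RO against NT was 0.12 in place of -0.03. Of 1224 values of the 44 genes, 12 rest on 3 counts or fewer, 9 of them in rPS, which limits the precision of the lowest levels.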

Other observations

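Of 106 other mitosis genes tested, 55 were called lower and 2 higher in rPS than in NT, with a median log2 fold change of -0.63, and 14 were called lower in R and 6 in PS. Of all genes tested, 12.0% were called lower in rPS, 0.803% in R and 4.12% in PS. Lmnb1, lamin B1 of the nuclear envelope, fell from 106 ± 30 to 61.9 ± 16 CPM (mean ± SD, edgeR adjusted p = 0.00544), and Ncapd2, a condensin I subunit, from 81 ± 15 to 52.6 ± 11.1 CPM (edgeR adjusted p = 0.00316), while Stag2 of cohesin was at 280 ± 23.4 and 247 ± 99.8 CPM (edgeR adjusted p = 0.563). Of 45 genes of S phase and DNA replication, 19 were called lower in rPS and 7 in R, with medians of -0.50 and -0.39. Rrm1, of ribonucleotide reductase, which makes deoxynucleotides, fell from 60.2 ± 11.3 to 36.9 ± 3.63 CPM in rPS (edgeR adjusted p = 0.00179), and Mcm5, of the replicative helicase, from 67.8 ± 9.78 to 46.6 ± 10.5 CPM (edgeR adjusted p = 0.00686). These lists were made with earlier results of the data known, and the difference between lists was not tested.

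Of 23 genes of G1 cyclins, CDK inhibitors and the RB family, 9 were called lower and 3 higher in rPS than in NT, beside 12.0% and 10.7% of all genes, so that the 3 of 23 are near the share of all genes. E2f2, a transcription factor of S phase entry, fell from 120 ± 52.5 to 46.9 ± 21.6 CPM (-1.35 ± 0.32, edgeR adjusted p = 0.00578). Ccnd3, cyclin D3, which drives G1 in lymphocytes, rose from 393 ± 77.3 to 646 ± 211 CPM (0.73 ± 0.19 on the log2 scale, edgeR adjusted p = 0.0112), and Cdk6, its kinase partner, from 114 ± 9.04 to 144 ± 19.9 CPM (0.33 ± 0.09, edgeR adjusted p = 0.013).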
